A study of Mus musculus with 6 samples.

Results

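The SMADs and their feedback regulators are described here as 10 genes of 22274 in a deposited count table. They are Smad2, Smad3, Smad4, Smad7, Ski, Skil, Smurf1, Smurf2, Pmepa1 and Tgif1. Members were picked out by gene name, and the choice was made with earlier results of these data known. Of the 10, 8 were listed under these spellings, and Smad3 and Smurf1 were listed in capitals, as SMAD3 and SMURF1. All 10 had the Ensembl identifier that GENCODE M21 gives to that symbol.

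TGF-β binds a pair of serine-threonine kinase receptors that phosphorylate SMAD2 and SMAD3. The phosphorylated proteins join SMAD4, enter the nucleus and act on target genes with other DNA-binding factors. The pathway restrains itself. SMAD7 blocks the receptor and brings the ubiquitin ligases SMURF1 and SMURF2 to it, SKI, SnoN (the product of Skil) and TGIF1 repress transcription with the SMAD complex, and PMEPA1 is a membrane protein that holds SMAD2 and SMAD3 away from the receptor. Smad7, Skil and Pmepa1 are themselves widely described as targets of TGF-β, and SMAD-driven transcription in kidney fibroblasts is a known driver of scarring.

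The cells were labelled as primary mouse renal fibroblasts, and both groups carried a TGF-β treatment of 48 h at a dose of 5 ng/ml. Prune2 siRNA had been used for 3 libraries, with a Prune2 knockdown as their genotype label, and scrambled siRNA for the 3 controls, with WT as theirs. No library without TGF-β was analysed here, so none of the values below measures the response to TGF-β. The sources used here do not give the number of siRNA sequences or mice, or whether replicates were separate cultures. The p-values therefore reflect variation among the 3 libraries of a group, and that variation may be technical. Total counts per library ran from 21126240 to 23234797 with Prune2 siRNA and from 20075265 to 23035593 with control siRNA.

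The label was checked against markers, in CPM, the library-scaled read count, with TMM factors. Prune2, the targeted gene, stood at 3.78, 3.19 and 4.44 CPM in the Prune2 siRNA libraries and 6.49, 7.85 and 6.52 CPM in the control libraries (log2 fold change -0.87, SE 0.15, adjusted p = 0.000214, edgeR). In the marker counts that follow, rose or higher and fell or lower mean an adjusted p under 0.05 in edgeR. Over all 13248 tested genes, 4.46% were higher and 5.83% lower by that limit. Fibroblast markers were uneven in level. Of 12 listed, 9 were tested, and 4 fell and 0 rose, with a median log2 fold change of -0.21. Vim and Col1a1 averaged 395 and 204 CPM with Prune2 siRNA, against 569.8 and 236 CPM with control siRNA, whereas Dcn, Lum and Fap were each under 1 CPM in both groups. Of 10 tubular epithelial markers tested, 3 rose (Cdh16, Pax8 and Slc12a3) and 2 fell (Krt8 and Lrp2). The epithelial markers Krt8, Cdh1 and Epcam averaged 2208, 997 and 431 CPM with Prune2 siRNA, and 2420, 1055 and 428 CPM with control siRNA. The fibroblast marker list summed to between 706 and 749 CPM per Prune2 siRNA library and between 930.3 and 967 CPM per control library, and the tubular list to between 5127 and 5575 CPM per Prune2 siRNA library and between 5576 and 5708 CPM per control library. Among these marker lists the leukocyte list had the median farthest from 0, at -2.62 on the log2 scale. Of 22 listed, 19 were tested, and 18 fell and 0 rose with Prune2 siRNA. Their sum was 53.5, 53.1 and 55.8 CPM in the Prune2 siRNA libraries, against 249, 263 and 213 CPM in the control libraries. Cd3e was at 0 in every library, and Ptprc and Cx3cr1 averaged 1.90 and 0.233 CPM with Prune2 siRNA, against 8.98 and 4.42 CPM with control siRNA. Of 10 endothelial markers 5 fell, with sums of 82.4 to 85.5 CPM with Prune2 siRNA and 109 to 118 CPM with control siRNA. Pericyte markers (5 tested) had 3 lower and 0 higher, and podocyte markers (4 tested) had 1 lower and 0 higher. Of 15 interferon-response genes 14 were tested and all 14 rose, with sums of 347, 296 and 282 CPM in the Prune2 siRNA libraries and 126, 171 and 128 CPM in the control libraries. In bulk samples, fewer cells of a type and less RNA per cell cannot be told apart. The part of these marker and interferon differences in any value below was not tested.

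SMAD3 and SMAD4 contact DNA through a short box, CAGAC. Promoter windows of 300 bases, from 250 bases before to 50 after a transcription start, were found for 5 of the 10 genes in the RefSeq table for GRCm38.p6 (Smad3, Ski, Smurf1, Smurf2 and Tgif1). Windows of 3 of them, those shown, are the paralogous ligase pair and the SMAD with the highest level per length. The capitals mark CAGAC on either strand, so GTCTG is its reverse complement. Smurf1 is at chr5:144965781-144966080, Smurf2 at chr11:106920666-106920965 and Smad3 at chr9:63757945-63758244, all on the minus strand and written 5′ to 3′.
Smurf1: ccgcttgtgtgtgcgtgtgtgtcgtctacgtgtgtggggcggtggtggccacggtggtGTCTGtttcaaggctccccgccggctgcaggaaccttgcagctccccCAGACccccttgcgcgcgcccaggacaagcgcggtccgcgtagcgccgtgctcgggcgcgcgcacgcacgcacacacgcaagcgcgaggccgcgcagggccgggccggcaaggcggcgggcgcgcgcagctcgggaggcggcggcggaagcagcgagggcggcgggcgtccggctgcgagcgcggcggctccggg
Smurf2: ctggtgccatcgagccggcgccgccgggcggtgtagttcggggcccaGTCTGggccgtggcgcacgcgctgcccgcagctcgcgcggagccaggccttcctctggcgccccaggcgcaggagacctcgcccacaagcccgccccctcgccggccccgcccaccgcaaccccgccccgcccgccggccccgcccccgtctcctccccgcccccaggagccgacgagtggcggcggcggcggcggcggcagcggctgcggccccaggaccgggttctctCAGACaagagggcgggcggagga
Smad3: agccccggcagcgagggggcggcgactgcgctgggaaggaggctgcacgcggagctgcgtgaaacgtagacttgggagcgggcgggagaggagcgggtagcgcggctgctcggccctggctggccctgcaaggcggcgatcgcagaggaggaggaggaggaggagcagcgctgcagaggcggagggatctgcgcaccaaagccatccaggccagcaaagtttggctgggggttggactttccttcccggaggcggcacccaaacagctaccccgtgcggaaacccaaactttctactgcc
The Smurf1 and Smurf2 windows held 2 boxes each, and the Smad3 window held 0. The Ski window also held 0, and 3 of the 5 Tgif1 windows held at least 1. Among all 32851 promoter windows in the table, 49.6% held the box, so its presence here is ordinary. No match in a window says only that these letters are not in it.

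None of the 10 genes was called changed by Prune2 siRNA. A gene was called at an adjusted p under 0.05 in the quasi-likelihood test of edgeR. Adjustment was by Benjamini-Hochberg over all 13248 genes that passed the low-count filter. Every adjusted p in the report comes from this fit unless another tool, an alternative setting, a left-out library or the authors' values are named. All 10 passed the filter, with at least 1655 counts in every library. In the same fit 10.3% of the tested genes were called, 4.46% higher and 5.83% lower. The adjusted p of the 10 genes ran from 0.109 for Skil to 0.872 for Tgif1. At an unadjusted p under 0.05 there were 3, Skil, Smad2 and Smad4, where 2651 of the 13248 tested genes, or 20.0%, were under that limit. DESeq2 also called 0 of the 10, with 2 under an unadjusted p of 0.05.

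The differences were small and their intervals narrow. Log2 fold changes, Prune2 siRNA over control siRNA, ran from -0.11 for Skil to 0.10 for Smad2. The outermost bounds of the 95% intervals were -0.19 for Skil and 0.18 for Smad2, which are folds of 0.877 and 1.14. The median size of the log2 fold change, without its sign, was 0.05 over the 10 genes and 0.08 over all tested genes. The signed medians were -0.03 and 0.00. With Prune2 siRNA, 4 genes had a positive log2 fold change (Smad2, Smad3, Smad4 and Tgif1) and 6 a negative one. Replicates lay close together. The coefficient of variation of CPM between the 3 libraries of a group had a median over the 10 genes of 2.28% with Prune2 siRNA and 3.10% with control siRNA, against 5.34% and 5.27% over all tested genes. The median SE of the log2 fold change was 0.038 over the 10 genes and 0.070 over all tested genes. The tested genes include many with fewer counts, and none of these medians was compared with genes of like count.

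**Figure D1:**
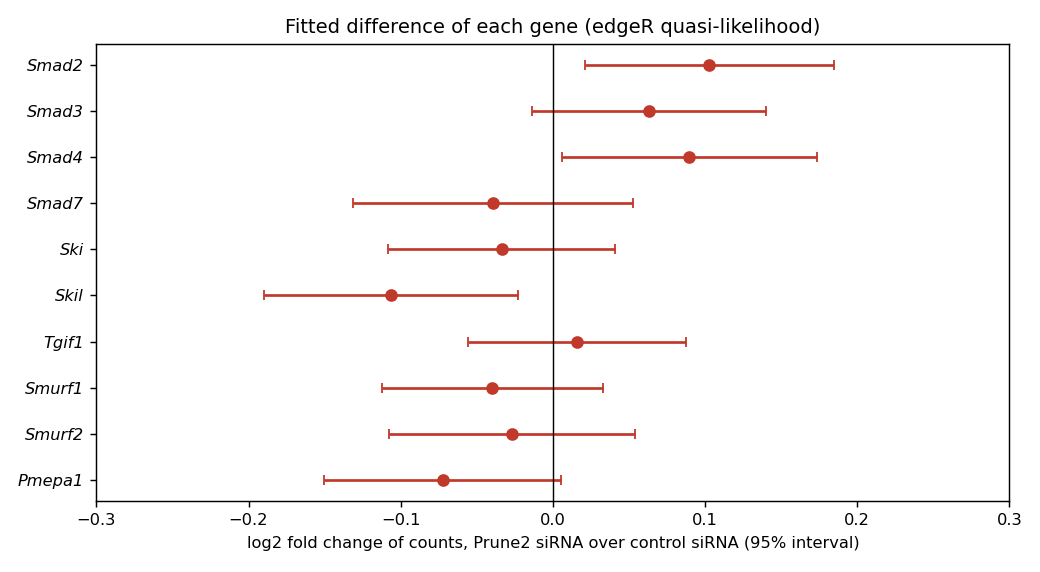
Log2 fold change of counts for each of the 10 genes, Prune2 siRNA over control siRNA, with its 95% interval from edgeR. All intervals lie between -0.19 and 0.18, and those of Smad2, Smad4 and Skil do not reach 0, although none of the 3 passed the adjustment over all genes.

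The receptor-activated SMADs and their common partner all had positive differences below the call threshold. Smad2 (chromosome 18, 76241580 to 76310963, plus strand, GRCm38), which carries the signal of TGF-β and activin receptors, had 122, 126 and 127 CPM in the Prune2 siRNA libraries and 113, 119 and 118 CPM in the control libraries. Every Prune2 siRNA library was above every control library. The log2 fold change of Smad2 was 0.10 (SE 0.04, interval 0.02 to 0.18, adjusted p = 0.116). Smad4 (chromosome 18, 73639009 to 73703780, minus strand), the partner of all receptor-activated SMADs, had 107, 109 and 114 CPM with Prune2 siRNA and 102, 102 and 105 CPM with control siRNA. These groups did not overlap either, and the log2 fold change was 0.09 (SE 0.04, interval 0.01 to 0.17, adjusted p = 0.207). Smad3 (chromosome 9, 63646767 to 63757994, minus strand), which binds DNA directly, had 297, 312 and 313 CPM with Prune2 siRNA and 287, 289 and 307 CPM with control siRNA. Its groups overlapped, since control replicate 3 stood above Prune2 siRNA replicate 1 (log2 fold change 0.06, interval -0.01 to 0.14, adjusted p = 0.382).

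Smad2 and Smad4 were the 2 genes of the 10 whose groups did not overlap, and 24.3% of all tested genes shared that property. Smad2 also depended on the unit. In the authors' FPKM, which is scaled by transcript length and library size, Smad2 had 50.6, 53.2 and 54.8 FPKM with Prune2 siRNA and 49.7, 52.2 and 50.5 FPKM with control siRNA, and the groups overlapped. The transcript length implied by count and FPKM was 2413, 2368 and 2339 bases for Smad2 with Prune2 siRNA, and 2250.0, 2277 and 2326 bases with control siRNA. These lengths did not overlap between groups, and their means differed by 3.90%. Of the 4279 tested genes whose counts were all 1000 or more, 10.1% had lengths that likewise did not overlap, and the median difference, without its sign, was 0.317%. Of the other 9 genes none had implied lengths that stood apart, the difference between group means ranging from -0.566% (Tgif1) to 2.67% (Smad3).

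The inhibitory SMAD and the ligases it recruits were not called. Smad7 (chromosome 18, 75367529 to 75395935, plus strand) had 83.5, 84.2 and 83.2 CPM with Prune2 siRNA and 91.1, 82.7 and 84.0 CPM with control siRNA. Control replicate 1 was the high library and the groups overlapped (log2 fold change -0.04, SE 0.04, interval -0.13 to 0.05, adjusted p = 0.708). Without that library the log2 fold change of Smad7 was 0.00053 (adjusted p = 0.997, against 0.565 to 0.997 over 14 alternatives). Smurf1 (chromosome 5, 144876495 to 144965847, minus strand), a HECT ubiquitin ligase that marks receptors and BMP-branch SMADs for degradation, had 228, 238 and 232 CPM with Prune2 siRNA and 242, 238 and 237 CPM with control siRNA. Smurf2 (chromosome 11, 106820066 to 106920715, minus strand), its paralogue, had 147, 150.4 and 141 CPM with Prune2 siRNA and 145, 154 and 147 CPM with control siRNA. For both ligases the groups overlapped, with log2 fold changes of -0.04 for Smurf1 (interval -0.11 to 0.03, adjusted p = 0.604) and -0.03 for Smurf2 (interval -0.11 to 0.05, adjusted p = 0.791). Leaving out Prune2 siRNA replicate 3 or control replicate 2 brought the log2 fold change of Smurf2 to -0.0033 and -0.0038. Exons of Smurf2 share 58 bases with a miRNA gene on the same strand, and the exons of the other 9 genes overlap those of no other annotated gene.

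**Figure D2:**
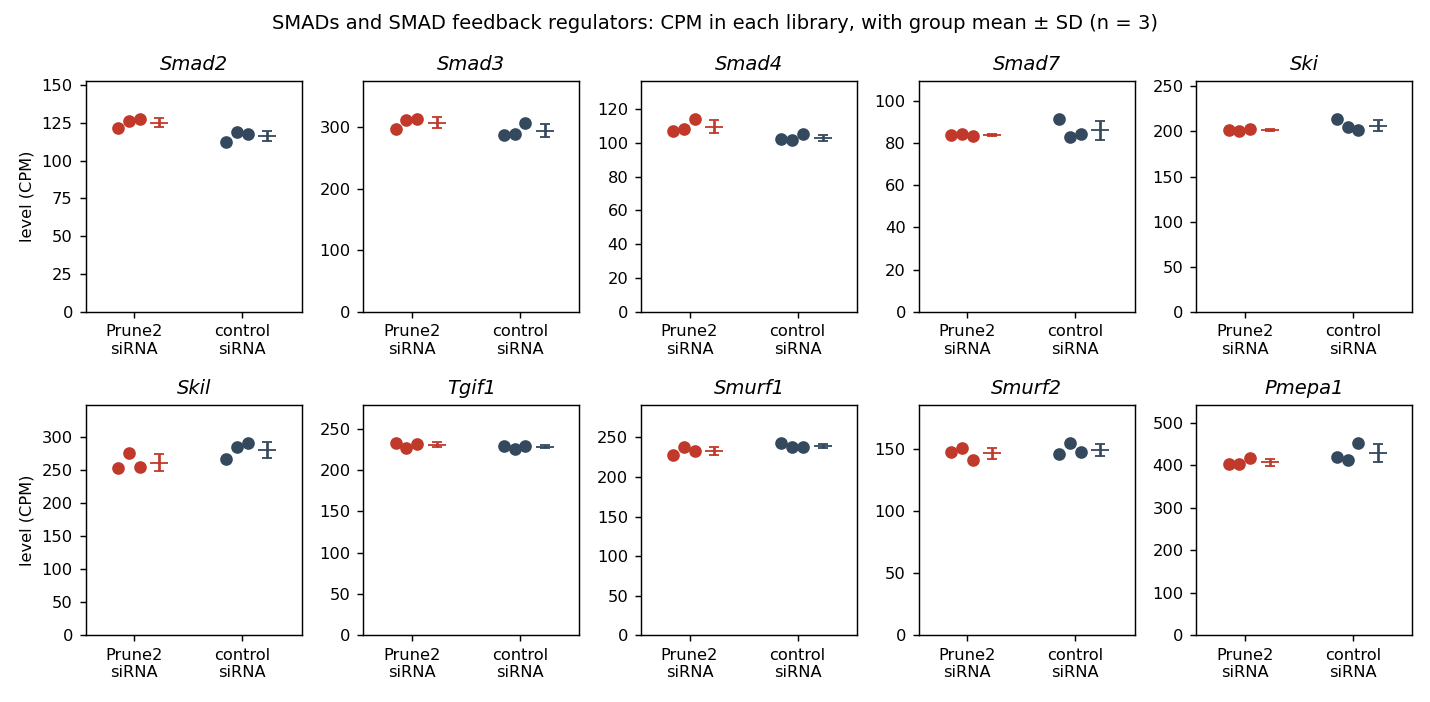
CPM of each of the 10 genes in the 3 Prune2 siRNA libraries (red, left) and the 3 control libraries (dark, right), with the group mean and SD beside the points. Axes start at 0. The points of both groups lie at nearly the same height in each panel, with Smad2 and Smad4 alone showing no overlap.

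Among the nuclear co-repressors, Skil stood lowest relative to control, and its call depended on single libraries. Skil (chromosome 3, 31095058 to 31122577, plus strand) encodes SnoN, which SMAD signalling first degrades and then induces. It had 253, 276 and 254 CPM with Prune2 siRNA and 268, 285 and 291 CPM with control siRNA. Prune2 siRNA replicates 1 and 3 lay below all controls, and Prune2 siRNA replicate 2 lay above control replicate 1. The log2 fold change of Skil was -0.11 (SE 0.04, interval -0.19 to -0.02, adjusted p = 0.109). Skil passed the threshold without Prune2 siRNA replicate 2 (log2 fold change -0.15, adjusted p = 0.0228) and without control replicate 1 (-0.14, adjusted p = 0.0422), and missed it in the other 12 alternatives, with adjusted p from 0.0228 to 0.356 over all 14. Ski (chromosome 4, 155154075 to 155222592, minus strand), the founding member of the same family, had 202, 201 and 202 CPM with Prune2 siRNA and 213, 205 and 201 CPM with control siRNA. The Prune2 siRNA libraries of Ski were almost level (coefficient of variation 0.446%) and close to the lowest control, 201 CPM in replicate 3 (log2 fold change -0.03, interval -0.11 to 0.04, adjusted p = 0.686). Tgif1 (chromosome 17, 70844205 to 70853546, minus strand), a homeobox repressor that recruits histone deacetylases to SMAD2, had 233, 227 and 232 CPM with Prune2 siRNA and 229, 226 and 229 CPM with control siRNA. It had the log2 fold change nearest to 0 of the 10 (0.02, interval -0.06 to 0.09, adjusted p = 0.872). With 1 library left out the log2 fold change ran from -0.055 to -0.014 for Ski (both extremes without a control library, replicate 3 and replicate 1) and from 0.0060 to 0.028 for Tgif1 (without control replicate 2 and without Prune2 siRNA replicate 2).

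Pmepa1 (chromosome 2, 173224458 to 173276533, minus strand) had 402, 403 and 417 CPM with Prune2 siRNA and 420.2, 413 and 452 CPM with control siRNA. Control replicate 3 stood highest, and the groups overlapped between Prune2 siRNA replicate 3 and control replicate 2. The log2 fold change was -0.07 (SE 0.04, interval -0.15 to 0.01, adjusted p = 0.293), and -0.03 without control replicate 3. Ldlrad4, which encodes a related membrane protein of the same feedback type, averaged 57.6 ± 0.947 CPM with Prune2 siRNA and 57.8 ± 3.41 CPM with control siRNA (SD, n = 3; log2 fold change -0.01, adjusted p = 0.967).

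**Figure D3:**
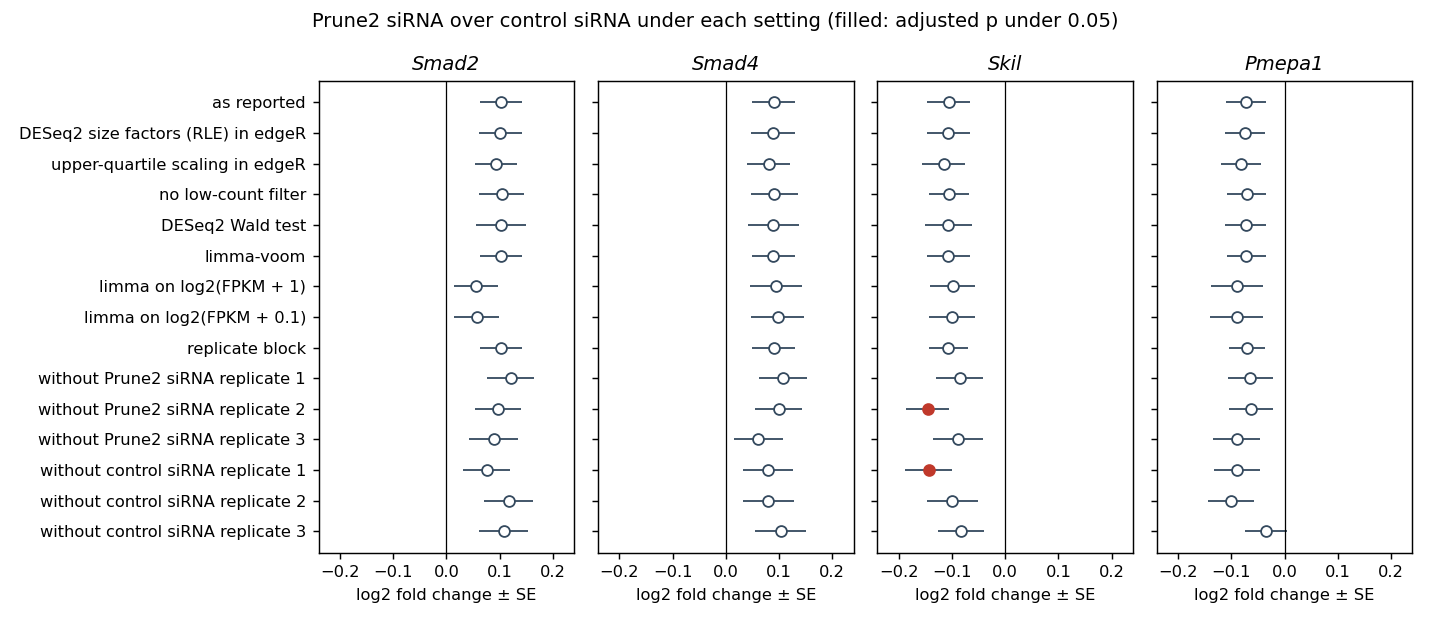
Log2 fold change ± SE of Smad2, Smad4, Skil and Pmepa1 as reported and under 14 alternatives, Prune2 siRNA over control siRNA. Filled points have an adjusted p under 0.05, which occurred for Skil without Prune2 siRNA replicate 2 and without control siRNA replicate 1 and nowhere else among these 4 genes.

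In the authors' deposited table the adjusted p of the 10 genes ran from 0.171 (Skil) to 0.981 (Smurf2 and Tgif1), and the log2 ratio of mean FPKM from -0.10 (Skil) to 0.10 (Smad4). Which test gave those values is not stated in the labels or headers.

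Levels per length, in FPKM, ordered the 10 genes in much the same way in every library. Tgif1 was highest, with 158, 153 and 162 FPKM with Prune2 siRNA and 154, 155 and 153 FPKM with control siRNA. Pmepa1 followed with 128, 125 and 129.6 FPKM with Prune2 siRNA and 137, 126 and 145 FPKM with control siRNA, and Smad3 with 73.7, 73.4 and 73.8 FPKM with Prune2 siRNA and 70.7, 69.4 and 75.6 FPKM with control siRNA. These 3 held ranks 1 to 3 in all 6 libraries, and neighbouring ranges did not overlap. Skil, Smad2 and Smurf1 formed a second step, with means over the 6 libraries of 54.3, 51.8 and 51.5 FPKM and ranges that overlapped. Ski, Smurf2, Smad4 and Smad7 formed the lowest step, with means of 37.5, 36.8, 32.5 and 29.8 FPKM, and each overlapped its neighbour. Even Smad7 stood above 80.6% of the tested genes by mean FPKM, and Tgif1 above 97.5%.

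**Figure D4:**
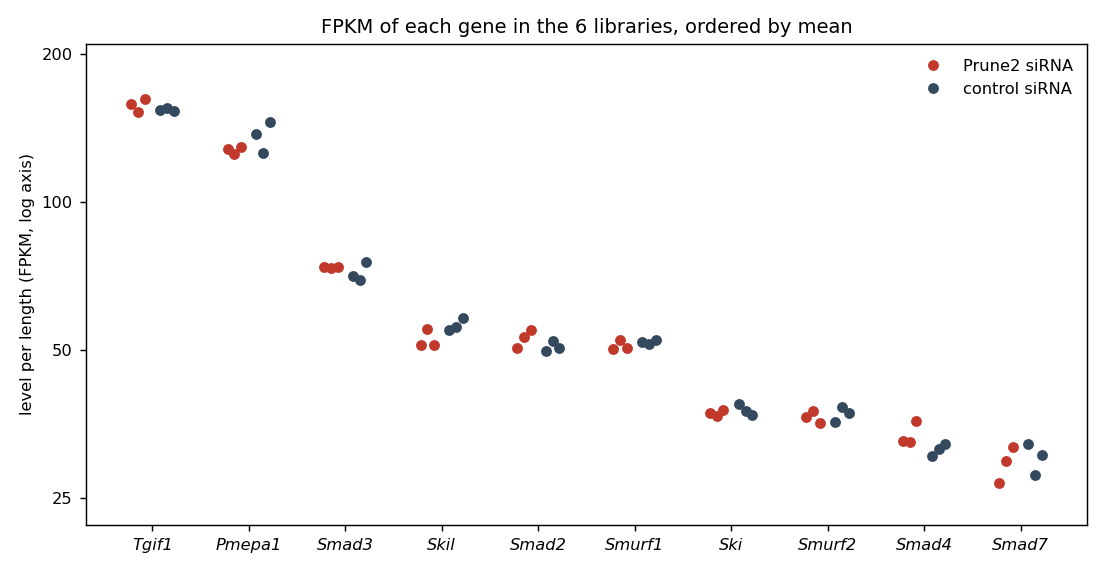
FPKM (log axis) of each of the 10 genes in the 6 libraries, ordered by the mean over all libraries, Prune2 siRNA in red and left of control siRNA. Tgif1, Pmepa1 and Smad3 stand clear of the rest. Skil, Smad2 and Smurf1 form a step with overlapping ranges. A gap separates them from Ski, Smurf2, Smad4 and Smad7, where each overlaps its neighbour and Smad7 is lowest at 29.8 FPKM.

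Ratios between partners were close in both groups. Smad2 over Smad3, in FPKM, was 0.686, 0.724 and 0.743 with Prune2 siRNA and 0.703, 0.751 and 0.668 with control siRNA. Smurf2 over Smurf1 was 0.726, 0.717 and 0.701 with Prune2 siRNA and 0.687, 0.744 and 0.710 with control siRNA, and Smad7 over Smad3 0.363, 0.405 and 0.429 with Prune2 siRNA and 0.454, 0.400 and 0.403 with control siRNA. All 3 ratios overlapped between groups. Skil over Smad2, a pair chosen after the values were seen, was 1.01, 1.04 and 0.932 with Prune2 siRNA and 1.11, 1.07 and 1.15 with control siRNA. Those values did not overlap, and no test was made of them. Among the SMADs and feedback regulators described here, Skil had the lowest log2 fold change of counts (-0.11) and Smad2 the highest (0.10). A pair picked from both ends favours separate groups, so nothing is concluded from the lack of overlap.

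The other genes of the pathway were taken from 5 lists, of which 74 of 76 genes were tested. Of the 74, 5 rose and 15 fell with Prune2 siRNA, or 27.0% called, and their median log2 fold change was -0.02. Over all tested genes 10.3% were called and the median was 0.00. The SMAD target list alone, with 26 genes, held 3 of the 5 that rose and 10 of the 15 that fell. All 5 lists were drawn up with earlier results of these data known. The share called was not compared with genes of like count, so it is a description only. Of the other SMADs 3 were tested. Smad1 and Smad5, the BMP-branch SMADs, averaged 44.9 ± 1.32 and 124 ± 3.31 CPM with Prune2 siRNA and 46.9 ± 3.46 and 126 ± 5.51 CPM with control siRNA (SD, n = 3). The inhibitory Smad6 averaged 12.0 ± 0.308 CPM with Prune2 siRNA and 11.2 ± 0.450 CPM with control siRNA, and at this lower level its interval was wider (log2 fold change 0.10, SE 0.09, interval -0.09 to 0.29). None of these 3 was called (adjusted p = 0.635, 0.861 and 0.634), and Smad9, at 0.122 CPM with Prune2 siRNA and 0.157 CPM with control siRNA, was too low to test.

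Of 13 ubiquitin ligases, deubiquitinases and phosphatases that act on SMADs, 1 rose and 0 fell. That is 7.69% called, against 10.3% of all tested genes. Usp9x, a deubiquitinase of SMAD4, averaged 584 ± 48.0 CPM with Prune2 siRNA and 531 ± 17.8 CPM with control siRNA (SD, n = 3), a log2 fold change of 0.14 with adjusted p = 0.0481. Its groups overlapped and it lost the call in 7 of 14 alternatives (adjusted p 0.00209 to 0.344), among them without Prune2 siRNA replicate 2 (0.0716 on the log2 scale, adjusted p = 0.33), Prune2 siRNA replicate 3, control replicate 1 or control replicate 2. Of 17 nuclear cofactors 0 rose and 3 fell, or 17.65% called. Zeb2, a repressor that binds SMADs, averaged 36.8 ± 2.04 CPM with Prune2 siRNA and 45.9 ± 2.10 CPM with control siRNA (log2 fold change -0.32, SE 0.06, adjusted p = 0.000307). Runx1, a transcription factor that also serves blood cells, fell by 0.22 (adjusted p = 0.000687), and Zeb1, a relative of Zeb2, by 0.26 (adjusted p = 0.0223). Zeb1 lost its call in 7 of 14 alternatives (adjusted p 0.00735 to 0.245), among them without Prune2 siRNA replicate 1 (0.0543) or 3 (0.160), or control replicate 2 (0.0542) or 3 (0.112). Runx1 lost it in both FPKM fits (highest adjusted p 0.0634). The leukocyte marker sum was lower in the same libraries, at most 55.8 CPM with Prune2 siRNA and at least 213 CPM with control siRNA. Whether that bears on Runx1, Zeb1 or Zeb2 was not tested.

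Of 15 receptors and adaptors 1 rose and 2 fell, or 20.0% called, against 10.3% of all tested genes. Tgfbr2, the ligand-binding TGF-β receptor, had 264.5, 267 and 272 CPM with Prune2 siRNA and 224, 226 and 245 CPM with control siRNA, and the groups did not overlap (log2 fold change 0.21, SE 0.04, adjusted p = 0.000443). Its signalling partner Tgfbr1 averaged 129.5 ± 6.37 CPM with Prune2 siRNA and 124 ± 5.08 CPM with control siRNA (SD, n = 3; adjusted p = 0.504). Eng, a co-receptor found on endothelium, averaged 22.1 ± 1.74 CPM with Prune2 siRNA and 30.2 ± 2.11 CPM with control siRNA, with no overlap (log2 fold change -0.45, SE 0.07, adjusted p = 6.27e-05). In the same libraries 5 of 10 endothelial markers fell, and a link between them and Eng was not tested. Acvr1, a type I receptor of the BMP branch, fell by 0.21 (SE 0.05, adjusted p = 0.00228).

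Of 26 listed SMAD target genes 13 were called, 10 lower and 3 higher, and the median log2 fold change of the list was -0.15. The 5 with the smallest adjusted p among those that fell were Tgfbi, Fn1, Inhba, Tagln and Acta2. Inhba, an activin subunit whose product signals through SMAD2 and SMAD3, had 291, 328 and 301 CPM with Prune2 siRNA and 395, 451 and 462 CPM with control siRNA (log2 fold change -0.51, SE 0.05, adjusted p = 2.76e-08). Tgfbi, an adhesion protein that macrophages also make, had the largest fall of the list (-2.51, SE 0.12). Leukocyte markers were lower in the same libraries, and a link between them and Tgfbi was not tested. Tgfb1 (-0.33), Hmga2 (-0.33), Col1a1 (-0.21) and Col1a2 (-0.20), named after their values were seen, also fell. Col1a1 and Col1a2 are also on the fibroblast marker list, of which 4 of 9 tested genes fell and 0 rose. Tgfb1, the ligand itself, averaged 56.2 ± 2.27 CPM with Prune2 siRNA and 70.8 ± 3.05 CPM with control siRNA (SD, n = 3; adjusted p = 2.54e-05). Col1a2 lost the call in 5 of 14 alternatives (adjusted p 0.000516 to 0.288), among them leaving out Prune2 siRNA replicate 1 (0.0750) or 2 (0.108) or control replicate 3 (0.157).

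The 3 targets that rose were Itgb6, Tsc22d1 and Myc. Itgb6, an epithelial integrin chain that activates latent TGF-β, had 115, 123 and 119.8 CPM with Prune2 siRNA and 109, 102 and 101 CPM with control siRNA (log2 fold change 0.20, SE 0.04, adjusted p = 0.00166), and lost the call in both FPKM fits (adjusted p = 0.0534 and 0.0543). Tsc22d1, a leucine zipper factor first found as TGF-β-induced, rose by 0.14 (adjusted p = 0.00605), with adjusted p = 0.0519 without control replicate 2 (6.22e-05 to 0.0519 over 14 alternatives). Myc, which TGF-β represses in epithelial cells, rose by 0.17 (adjusted p = 0.0115) and lost the call in 5 of 14 alternatives (adjusted p 0.00106 to 0.128), including without Prune2 siRNA replicate 3 (0.0851), control replicate 2 (0.0829) or control replicate 3 (0.101). Junb, Ccn1 and Cdkn1a, also listed targets, were not called (adjusted p = 0.858, 0.965 and 0.256). The list was drawn up with earlier results of these data known, so its count is not independent evidence of a direction.

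**Figure D5:**
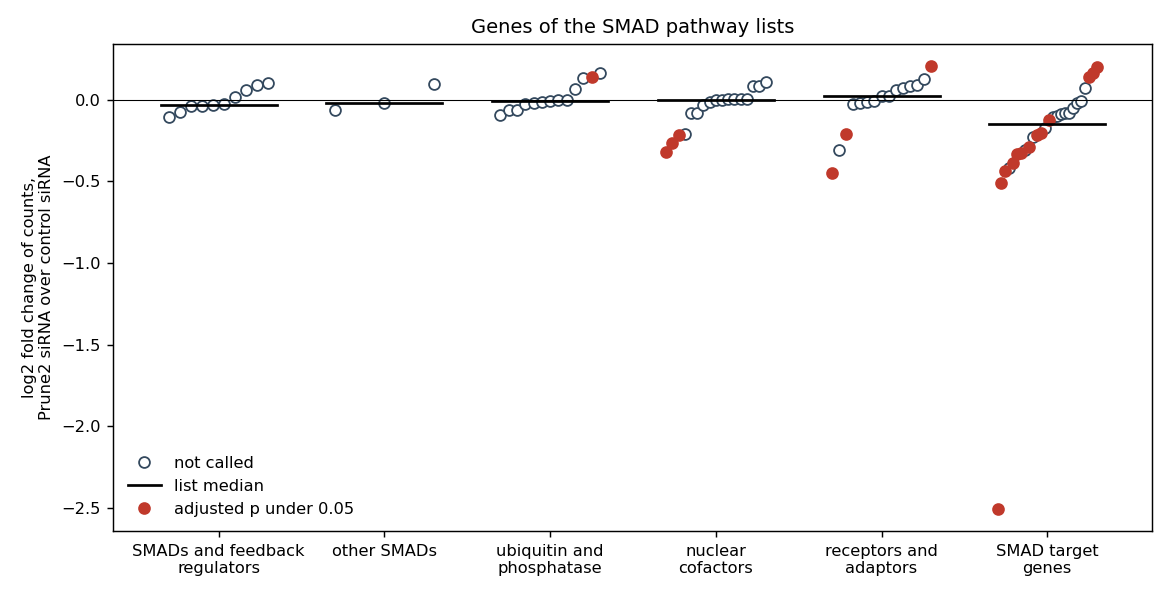
Log2 fold change of counts, Prune2 siRNA over control siRNA, for each tested gene of the 10 described here and of 5 pathway lists, with filled points for an adjusted p under 0.05 and a bar for the list median. The 10 genes lie between -0.11 and 0.10 with no filled point, and the lowest point, at -2.51, is Tgfbi.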

How the data were processed

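RNA-seq was read from 1 table that the authors deposited, with read counts per gene and FPKM for each of 6 libraries, per the file headers. The authors' deposited log2 ratio compares mean FPKM, and the deposited p-value columns come from a test that is not given in the sources used here, and neither are the aligner and counting tool. The submitters' processing notes list GRCm38 and mm10 as builds. Identifiers were matched to GENCODE M21 (22219 of 22274). The deposited counts went into edgeR 4.0.16 under R 4.3.3 (TMM, filterByExpr, glmQLFit and glmQLFTest, Benjamini-Hochberg over 13248 genes, group as the only term). A standard error is the size of the log2 fold change over the square root of F, and the 95% interval uses the t quantile at the total degrees of freedom. Marker sums use TMM factors over all genes. Implied length is the count divided by FPKM and library total. Replicate pairs gave a chi-square per degree of freedom of 2.57 to 3.92, above sampling noise, so each library counted once.

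Alternatives were other scaling in edgeR, no low-count filter, DESeq2 1.42.0, limma 3.58.1 (voom, and log2(FPKM + 1) or log2(FPKM + 0.1) at a mean FPKM of at least 0.1), the replicate number as a block, and leaving out each library. The procedure was tested on simulated data. All 10 genes are named, with, from each pathway list, up to 5 called genes per direction by adjusted p and every other SMAD. Members and lists were chosen with earlier results of these data known. Some genes counted in the lists are not reported here by name. No exact permutation test was used for calls, since 3 libraries against 3 cannot give a p under 0.1.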

Additional observations from a re-analysis of the deposited data

How the results depend on the processing

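Of 140 values for the 10 genes under 14 alternatives, 137 kept their direction and stayed uncalled, 2 were Skil passing the threshold, and 1 was Smad7 with its sign turned (0.00053 without control replicate 1, and -0.068 to 0.00053 over the left-out libraries). The count of called members was 0 to 1 when 1 library was left out and 0 in each other alternative. Fits to log2(FPKM + 1) and log2(FPKM + 0.1) called 752 and 756 genes, against 1364 by counts, with 326 higher in both and 426 and 430 lower, and 13 pathway genes in both, against 20. They gave Prune2 a log2 fold change of -0.24 (adjusted p = 0.146) and -0.43 (0.187). Mean FPKM of Prune2 was 0.847 with Prune2 siRNA and 1.18 with control siRNA, a deposited log2 ratio of -0.48. Its implied length averaged 4492 bases with Prune2 siRNA and 5874 bases with control siRNA (-23.5%), without overlap between groups. Both FPKM fits change the unit, test and filter together, and the cause was not tested. Smad5 turned sign in both (0.0012 and 0.0013) and without control replicate 3 (0.015, and -0.045 to 0.015 over the left-out libraries), with no call. Over 22 other genes, 276 of 308 values kept direction and call, 29 lost a call and 3, those of Smad5, turned sign. Tgfbr1, Ldlrad4, Junb, Ccn1, Cdkn1a and the marker genes were not followed through the alternatives. Same-numbered libraries did not deviate together (correlations 0.0155, -0.0537 and -0.0549). With the replicate block, 1490 genes and 23 pathway genes were called, and 0 of the 10. The 10 genes had 1655 to 10396 counts per library. The printed intervals reflect the spread among the libraries of a group, which may be technical.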

Other observations

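The genes whose level across the 6 libraries was most like that of Skil, the member with the smallest p, were Ptar1, Nadk2 and Edem3. Likeness was the root mean square difference of log2 CPM, each gene centred on its mean, among 9062 tested genes with a mean of at least 10 CPM, and it was 0.0131, 0.0137 and 0.0151 for the 3, against 0.0757 for the deviations of Skil itself. Edem3, which helps clear misfolded glycoproteins from the endoplasmic reticulum, had 102, 110.1 and 101 CPM with Prune2 siRNA and 108, 112 and 114 CPM with control siRNA. None of the 3 was called (adjusted p = 0.213, 0.593 and 0.196, edgeR). Picking the nearest of so many genes over 6 libraries is a description only.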
